A study of Homo sapiens with 6 samples.

Results

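Messenger RNA of 10 glycolytic enzymes was followed in the breast cancer line ZR-75-30 after infection with a CDK12 lentivirus or an empty one. The enzymes are HK2, GPI, PFKM, ALDOA, TPI1, GAPDH, PGK1, ENO1, PKM and LDHA, taken by gene symbol and kept in pathway order. All 10 are among the 26364 symbols in the count files, and all 10 were among the 14665 genes that passed the filter on low counts. ZR-75-30 is an established line of breast adenocarcinoma with epithelial cells. Cells of the CDK12 group received pLVX-CDK12, a vector carrying the kinase gene CDK12, and cells of the control group received pLVX alone. Each group held 3 biological replicates per the labels, sequenced as polyadenylated RNA on 1 platform. The labels do not say whether replicates came from separate infections, so p-values measure only the spread between these libraries. The labels give neither the time after infection nor the promoter that drives CDK12 in the vector, nor whether a clone was picked. The series title sets out to find targets of CDK12, whose product phosphorylates the tail of RNA polymerase II during elongation.

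Glycolysis splits glucose into pyruvate and yields ATP and NADH. Its preparatory phase, from hexokinase to triosephosphate isomerase, spends ATP, and its payoff phase, from glyceraldehyde-3-phosphate dehydrogenase to pyruvate kinase, returns it. Lactate dehydrogenase then turns pyruvate into lactate and restores NAD+. Many tumours, breast cancers included, run the pathway to lactate even with oxygen at hand, and the transcription factors HIF-1 and MYC are known to raise several of its genes.

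The CDK12 libraries held 23628890 to 26543653 counts and the control libraries 21178163 to 25014857. Levels below are in CPM, counts scaled to a common library total with TMM factors. CDK12 itself stood at 2009 to 2240 CPM in the CDK12 libraries and at 72.8 to 81.8 CPM in the control libraries, so each library matched its label. All 8 luminal markers were detected, with KRT8 at 1683 CPM in CDK12 libraries and 1937 CPM in control libraries. Summed, they were at 11911 to 12462 CPM in CDK12 libraries and 13564 to 14199 CPM in control libraries, most of it from ERBB2. Of 10 fibroblast, endothelial and leukocyte markers, 6 did not pass the filter, and their summed level was 62.9 to 73.3 CPM in CDK12 libraries and 52.4 to 56.4 CPM in control libraries, most of it from COL1A1 (63.8 CPM in CDK12 libraries and 48.2 CPM in control libraries). The other collagen markers were near 0 and lower, COL3A1 at 0.109 CPM in CDK12 libraries and 0.602 CPM in control libraries (edgeR adjusted p = 0.000181) and COL1A2, below the filter, at 0.0511 and 0.296 CPM in CDK12 and control libraries. The leukocyte gene PTPRC averaged 0.358 CPM in CDK12 libraries and 2.96 CPM in control libraries. The part of these shifts in the results below was not tested.

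Transcripts of 6 of the 10 enzymes were lower in CDK12 cells, PFKM was higher, and ALDOA, TPI1 and LDHA did not pass the test. The 6 that fell were HK2, GPI, GAPDH, PGK1, ENO1 and PKM, with log2 fold changes (CDK12 over control) from -0.26 for GAPDH to -0.11 for GPI. PFKM had a log2 fold change of 0.29. A gene passed at a Benjamini-Hochberg adjusted p under 0.05 over all genes in edgeR's quasi-likelihood test. Of all genes tested, 35.1% passed in either direction, 18.9% lower and 16.2% higher, against 7 of 10 enzymes. Higher genes made up 46.1% of these calls, and 61.7% when libraries were scaled by total counts, where 5 enzymes were lower and 1 higher. The median log2 fold change was -0.13 over the 10 enzymes and 0.0035 over all genes tested. The groups' libraries did not overlap for 8 of the enzymes, the exceptions being TPI1 and LDHA, and for 45.6% of all genes tested. The shares of 35.1% and 45.6% are over genes of any abundance, whereas the enzymes ranked from 7 (GAPDH) to 2997 (PFKM) by mean CPM. Shares among genes of like abundance were not taken. These are bulk libraries, in which fewer cells of a kind and less RNA per cell cannot be told apart.

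**Figure D1:**
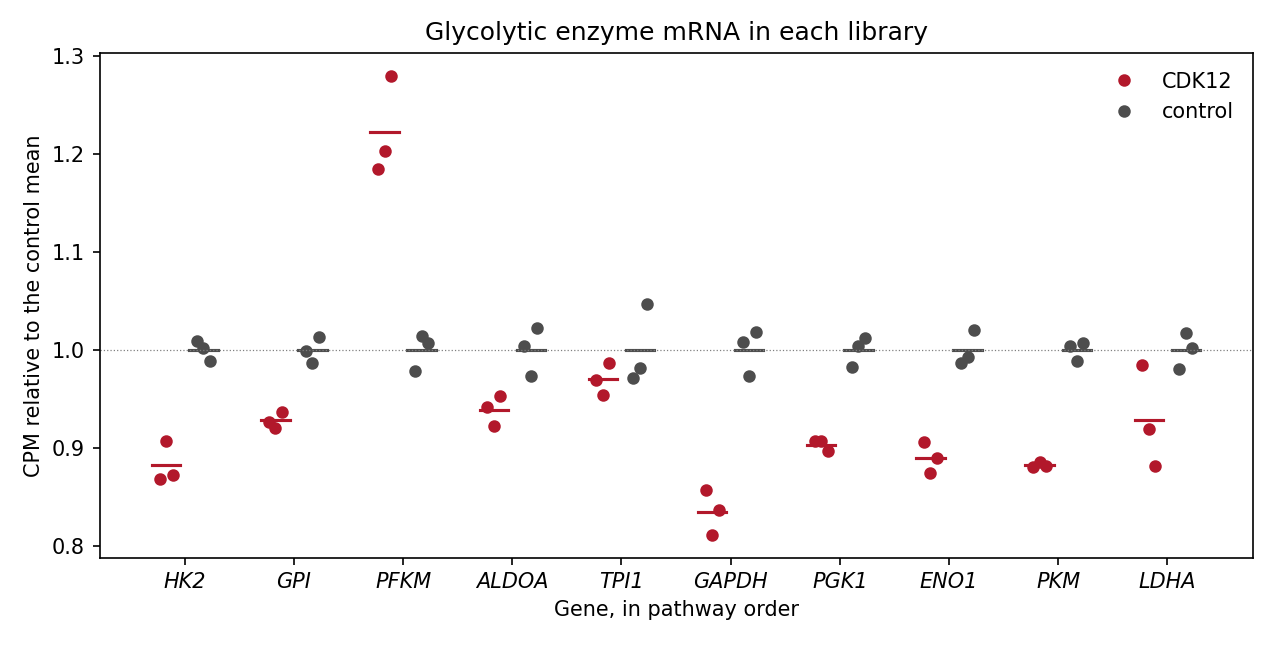
Level of each enzyme in each library, as CPM divided by the mean of the 3 control libraries of that gene, in pathway order; points are libraries and short lines are group means. PFKM is the gene whose CDK12 points lie above the control points, and TPI1 and LDHA are the genes whose groups overlap.

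The preparatory phase opens with hexokinase 2. HK2, which traps glucose as glucose 6-phosphate, had 112, 117 and 112 CPM in CDK12 libraries and 130, 129 and 127 CPM in control libraries. All CDK12 libraries lay below all control libraries, and the log2 fold change was -0.18 (SE 0.04; adjusted p = 0.00146, edgeR quasi-likelihood test). GPI, the isomerase that makes fructose 6-phosphate, had 383, 381 and 388 CPM in CDK12 libraries and 413, 408 and 419 CPM in control libraries. Its groups were apart as well, with a smaller log2 fold change of -0.11 (SE 0.04; adjusted p = 0.0301 in edgeR). The GPI call was lost with upper-quartile factors (edgeR adjusted p = 0.159) and with total counts (0.187). It was also lost when control replicate 1 (edgeR adjusted p = 0.0847), control replicate 3 (0.128) or CDK12 replicate 2 (0.0923) was left out.

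PFKM, the muscle-type phosphofructokinase gene, ran the other way. Phosphofructokinase catalyses the committed step of glycolysis and is its main point of allosteric control. PFKM had 90.0, 91.4 and 97.3 CPM in CDK12 libraries and 74.3, 77.1 and 76.5 CPM in control libraries. Every CDK12 library exceeded every control library, a 1.22-fold difference (log2 fold change 0.29, SE 0.05; edgeR adjusted p = 1.77e-05). The call held in all 14 alternative fits that were run, with log2 fold changes between 0.26 and 0.33. In GENCODE 29 an exon of PFKM overlaps one of SENP1 on the opposite strand, and whether the counting used strand is not stated in the sources at hand. SENP1 was at 42.5 ± 2.32 CPM in CDK12 libraries and 37.9 ± 1.09 CPM in control libraries (SD, n = 3 each), a log2 fold change of 0.17 (edgeR adjusted p = 0.0233). The part of shared reads in the PFKM difference was not tested.

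Aldolase A and triosephosphate isomerase, the last enzymes of the preparatory phase, did not pass. ALDOA, which cleaves fructose 1,6-bisphosphate, had 1130, 1105 and 1143 CPM in CDK12 libraries and 1204, 1167 and 1225 CPM in control libraries. The groups were apart by a narrow margin, and the log2 fold change was -0.09 (SE 0.04; edgeR adjusted p = 0.0714), while limma-voom gave an adjusted p of 0.0426. TPI1, which interconverts the triose phosphates, had 255, 251 and 260 CPM in CDK12 libraries and 256, 259 and 276 CPM in control libraries. Its groups overlapped, with a log2 fold change of -0.04 and an unadjusted interval of 1.96 SE on either side from -0.12 to 0.04 (edgeR adjusted p = 0.434). An exon of TPI1 overlaps one of SPSB2 on the opposite strand, and SPSB2 was at 22.8 ± 2.15 CPM in CDK12 libraries and 19.9 ± 1.74 CPM in control libraries (SD, n = 3 each).

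GAPDH, the gene of the enzyme that starts the payoff phase and makes its NADH, fell the most among the 10. It had 4398, 4166 and 4295 CPM in CDK12 libraries and 5174, 5000 and 5227 CPM in control libraries. No CDK12 library reached the lowest control library, and the level fell by 16.5% in the fit (log2 fold change -0.26, SE 0.04; edgeR adjusted p = 1.21e-05). GAPDH ranked 7 among all genes tested by mean CPM. GENCODE 29 names 62 pseudogenes after GAPDH, and none of those symbols is in the files. Reads shared with such copies could have been dropped or added to GAPDH in the counting, and their part was not tested.

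PGK1, the kinase of the first ATP-yielding step, had 372, 372 and 368 CPM in CDK12 libraries and 403, 412 and 416 CPM in control libraries. The groups were apart, with a log2 fold change of -0.15 (SE 0.04; edgeR adjusted p = 0.00405). ATP7A, on the same strand, shares exon sequence with PGK1 in GENCODE 29 and was at 28.6 ± 2.54 CPM in CDK12 libraries and 25.1 ± 1.27 CPM in control libraries (SD, n = 3 each). PGK1 is a known HIF-1 target, and HIF-1 binds DNA at the core ACGTG or GCGTG. The promoter sequence is shown because it holds 3 such cores, in capitals on either strand, and because no GENCODE 29 exon covers it. It is the reference sequence of RefSeq at chrX:78103998-78104173 on the plus strand of GRCh38.p14. The stretch ends just before the start of the principal PGK1 transcript in GENCODE 29, which gives the whole gene a span of 218.558 kb.
PGK1: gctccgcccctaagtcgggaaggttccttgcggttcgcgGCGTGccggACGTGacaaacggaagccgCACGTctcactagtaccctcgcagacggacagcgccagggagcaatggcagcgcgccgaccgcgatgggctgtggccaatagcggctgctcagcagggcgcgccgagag

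ENO1 and PKM, the enzymes that make phosphoenolpyruvate and then pyruvate, fell by similar amounts. ENO1, alpha-enolase, had 808, 780 and 793 CPM in CDK12 libraries and 880, 885 and 910 CPM in control libraries. The CDK12 libraries were all lower, with a log2 fold change of -0.17 (SE 0.04; edgeR adjusted p = 0.00127). ENO1-AS1, an antisense gene that overlaps it, had at most 6 counts in a library. PKM, pyruvate kinase of most tissues and tumours, had 1034, 1041 and 1035 CPM in CDK12 libraries and 1179, 1162 and 1183 CPM in control libraries. Its groups were apart with little spread, and the log2 fold change was -0.18 (SE 0.04; edgeR adjusted p = 0.000552). The counts per gene do not part the PKM1 and PKM2 splice forms.

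LDHA, which reduces pyruvate to lactate, was close to the threshold without passing it. It had 845, 789 and 756 CPM in CDK12 libraries and 841, 873 and 859 CPM in control libraries. CDK12 replicate 1 lay within the control range and the other CDK12 libraries below it. The log2 fold change was -0.11 (SE 0.04; edgeR adjusted p = 0.05003), and without CDK12 replicate 1 it was -0.15 (adjusted p = 0.00444). Limma-voom gave an adjusted p of 0.0343 and the DESeq2 Wald test one of 0.0612. The part of the LDHA promoter window that no GENCODE 29 exon covers, chr11:18394313-18394387 on the plus strand (RefSeq, GRCh38.p14), holds a CACGTG near its end. That hexamer contains the HIF-1 core on both strands and is also the binding sequence of MYC with MAX.
LDHA: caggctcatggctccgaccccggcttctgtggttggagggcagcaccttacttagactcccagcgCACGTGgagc

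Over the 250 bases before each gene's start in the RefSeq table, ACGTG or GCGTG on either strand was found in 7 of the 10 enzymes (HK2, GPI, ALDOA, GAPDH, PGK1, ENO1 and LDHA) and in 43.1% of 34788 promoter windows. It was not found in the windows of PFKM, TPI1 and PKM. CACGTG, which contains ACGTG, was found in GAPDH and LDHA and in 6.31% of windows, and the GC box GGGCGG in 6 of 10 enzymes and in 42.6% of windows. A match is only a run of letters, and GENCODE 29 exons of any gene cover 82.6% of the bases of the 10 windows, from 29.6% for PGK1 to the whole window for 5 of them. Of the 14 runs that hold ACGTG or GCGTG, 9 lay within such exons. The table's start lay 146 bases from that of the principal transcript in GENCODE 29 for HK2, 135 for GPI, 252 for PFKM, 510 for GAPDH, 196 for PKM and 175 for LDHA.

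Per kilobase of coding-transcript exon, GAPDH was the most abundant of the 10 and HK2 and PFKM the least. This level was 1927 ± 52.3 CPM per kb in CDK12 libraries and 2308 ± 53.4 CPM per kb in control libraries for GAPDH (SD, n = 3 each). Below it, in both groups, came ALDOA (468 in CDK12 and 498 in control libraries), ENO1 (330 and 371), PKM (313 and 355), LDHA (268 and 289), TPI1 (118 and 121), GPI (85.8 and 92.5) and PGK1 (74.4 and 82.3), in CPM per kb. PFKM was at 19.5 ± 0.80 CPM per kb and HK2 at 19.1 ± 0.47 CPM per kb in CDK12 libraries, a gap within their spread. In control libraries PFKM, at 15.9 ± 0.30 CPM per kb, lay below HK2, at 21.7 ± 0.23 CPM per kb. Exon lengths came from GENCODE 29 and not from the annotation used for the counts.

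**Figure D2:**
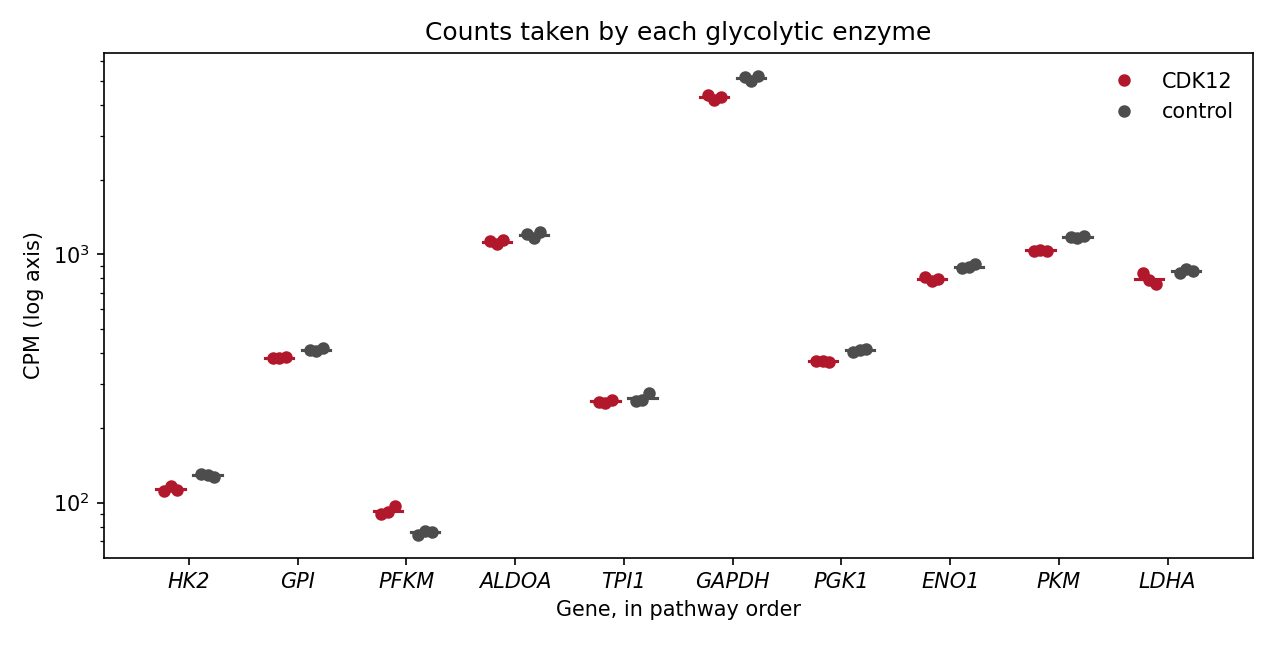
CPM of each enzyme in each library on a log axis, not divided by gene length; points are libraries and short lines are group means. GAPDH takes between 4166 and 5227 CPM, and PFKM and HK2 lie between 74.3 and 130 CPM.

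The 10 enzymes together took 9427, 9093 and 9247 CPM in CDK12 libraries and 10556, 10372 and 10719 CPM in control libraries. The ratio of the mean sums, CDK12 over control, was 0.877, and it was 0.918 with GAPDH left out of the sum. GAPDH made up 46.3% of the sum in CDK12 libraries and 48.7% in control libraries. The 5 enzymes of the payoff phase and lactate step summed to 7284 ± 158 CPM in CDK12 libraries and 8468 ± 132 CPM in control libraries, a ratio of 0.860. GAPDH alone made up 58.8% of this sum in CDK12 libraries and 60.6% in control libraries, so the ratio rests largely on that gene. For the 5 enzymes of the preparatory phase the sums were 1972 ± 27.02 CPM in CDK12 libraries and 2081 ± 42.2 CPM in control libraries (SD, n = 3 each), a ratio of 0.948. No test was made on these sums.

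Of the 3 phosphofructokinase genes, the muscle type was higher and the liver type lower in CDK12 cells. PFKL, the liver-type gene, had 118, 117 and 124 CPM in CDK12 libraries and 152, 144 and 154 CPM in control libraries. It fell by 0.33 on the log2 scale (SE 0.04; edgeR adjusted p = 1.45e-06), a larger fitted change than that of any of the 10 enzymes, although that difference in size was not tested. PFKP, the platelet-type gene, had 144, 146 and 149 CPM in CDK12 libraries and 155, 155 and 157 CPM in control libraries, and did not pass (log2 fold change -0.09, SE 0.04; edgeR adjusted p = 0.0943). Counts of PFKM over those of PFKL in the same library were 0.760, 0.782 and 0.782 in CDK12 libraries and 0.488, 0.536 and 0.496 in control libraries, a 1.53-fold difference. This ratio is not affected by the scaling between libraries. Its exact two-sided permutation p was 0.1, the smallest that 3 against 3 libraries allow, and 0.12 after adjustment over the 6 isozyme ratios compared. PFKM over PFKP differed 1.30-fold in the same direction, with the same exact permutation p.

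**Figure D3:**
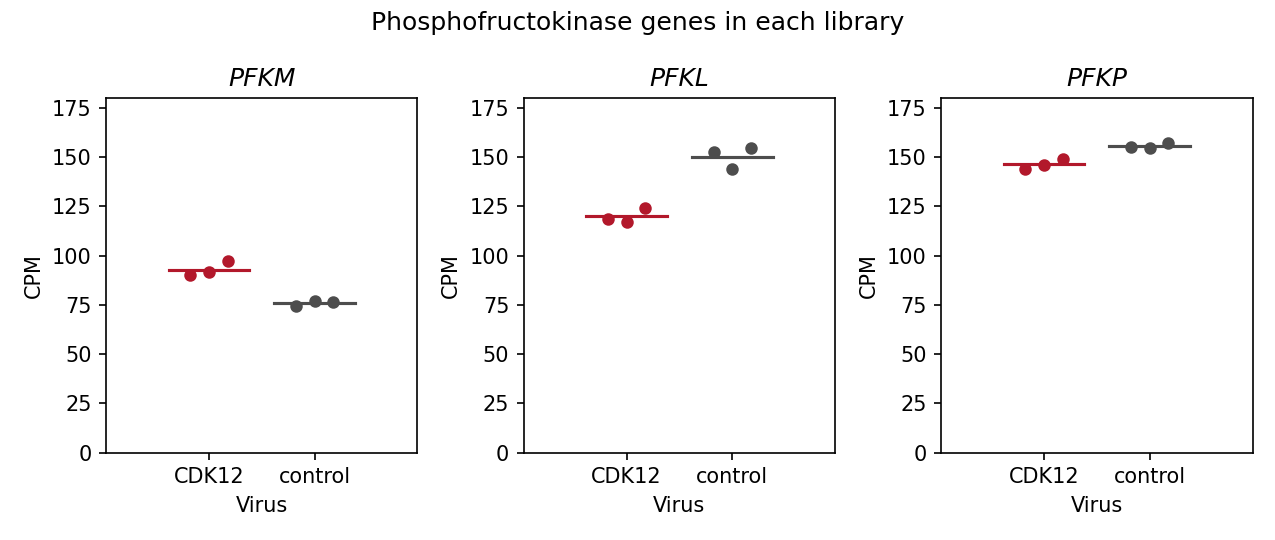
CPM of the 3 phosphofructokinase genes in each library, with the CDK12 libraries left of the control libraries; points are libraries and lines are group means. PFKM is higher in CDK12 libraries (90.0 to 97.3 CPM, against 74.3 to 77.1 CPM in control libraries), and PFKL is lower (117 to 124 CPM, against 144 to 154 CPM).

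The second genes of the other steps were enolase 2, hexokinase 1, aldolase C and lactate dehydrogenase B. ENO2, the neuronal enolase gene, was at 18.5 ± 0.81 CPM in CDK12 libraries and 15.5 ± 1.75 CPM in control libraries (SD, n = 3 each), a log2 fold change of 0.26 (edgeR adjusted p = 0.0122), though without control replicate 1 the adjusted p was 0.117. Counts of ENO1 over ENO2 were 42.8, 44.2 and 41.5 in CDK12 libraries and 64.0, 57.1 and 52.8 in control libraries, and the groups did not overlap (exact permutation p = 0.1). HK1, the broadly expressed hexokinase gene, was at 415 ± 16.4 CPM in CDK12 libraries and 440 ± 8.63 CPM in control libraries without passing (edgeR adjusted p = 0.117). HK2 over HK1 and ALDOA over ALDOC were slightly lower in CDK12 libraries, by 0.10 and 0.08 on the log2 scale, each with an exact permutation p of 0.1. LDHB, the heart-type lactate dehydrogenase gene, had 3.98 ± 0.54 CPM in CDK12 libraries and 3.49 ± 0.44 CPM in control libraries (SD, n = 3 each), and did not pass. Counts of LDHA over LDHB were 183 to 234 in CDK12 libraries and 230 to 282 in control libraries, ranges that overlapped (exact permutation p = 0.3).

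Of 23 other genes for the same steps and for phosphoglycerate mutase, 16 were tested, 3 were higher and 3 lower. That is 37.5% called, near the 35.1% of all genes tested. The median log2 fold change of the 16 was 0.16. Without control replicate 1, 0 of the 16 were higher by edgeR (3 at an unadjusted p under 0.05). BPGM, the gene of bisphosphoglycerate mutase, which diverts an intermediate of the payoff phase into 2,3-bisphosphoglycerate, had 34.6, 31.9 and 33.3 CPM in CDK12 libraries and 53.0, 54.5 and 50.1 CPM in control libraries. The groups were far apart, and BPGM fell by 0.66 on the log2 scale (SE 0.06; edgeR adjusted p = 4.24e-10). PGAM1, the mutase of the main pathway, was at 77.2 ± 2.50 CPM in CDK12 libraries and 83.5 ± 0.74 CPM in control libraries (edgeR adjusted p = 0.0518), and it passed without CDK12 replicate 1 (adjusted p = 0.0241) and with the replicate number as a block (0.0467).

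**Figure D4:**
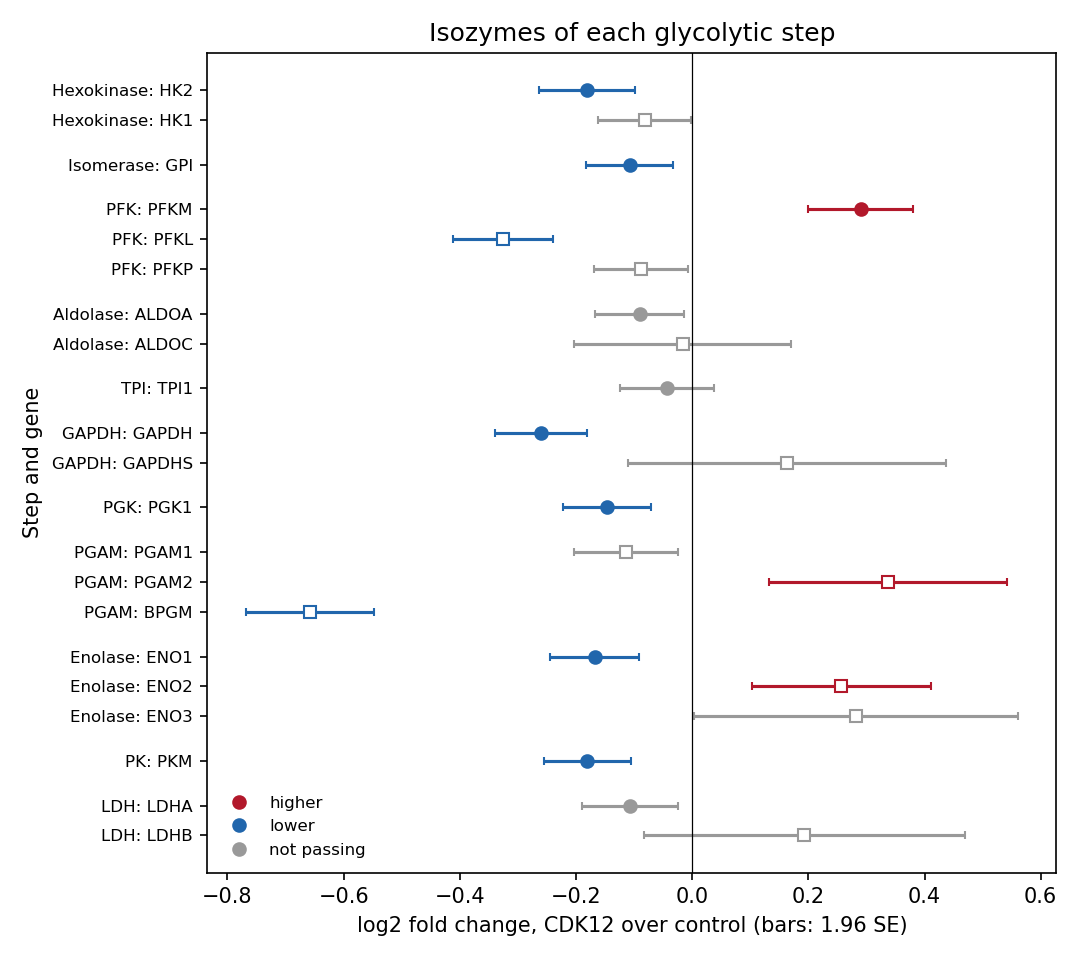
Log2 fold change (CDK12 over control) of the genes of each glycolytic step, with bars of 1.96 SE; filled circles are the 10 enzymes followed here, open squares are other genes of the step, and colours mark the edgeR call at an adjusted p of 0.05. PFKM (0.29) and PFKL (-0.33) lie on opposite sides of 0.

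The genes that set the allosteric activator of phosphofructokinase moved in both directions. PFKFB3, which makes the activator fructose 2,6-bisphosphate, was at 231 ± 2.78 CPM in CDK12 libraries and 254 ± 5.99 CPM in control libraries (edgeR adjusted p = 0.00757; 0.0581 without control replicate 1 and 0.0565 with total counts). PFKFB4, of the same family, rose to 27.8 ± 1.73 CPM in CDK12 libraries, against 23.4 ± 0.76 CPM in control libraries (SD, n = 3 each; edgeR adjusted p = 0.00415). PFKFB2 and TIGAR did not pass, with log2 fold changes of -0.03 and 0.10, and PFKFB1 did not pass the filter. FBP1, fructose 1,6-bisphosphatase, which reverses the phosphofructokinase step, rose to 12.2 ± 0.66 CPM in CDK12 libraries, against 8.26 ± 0.49 CPM in control libraries (SD, n = 3 each; log2 fold change 0.55, edgeR adjusted p = 1.82e-05). Of all genes tested, 16.2% were higher and 18.9% lower. Of the 4 gluconeogenesis genes tested, FBP1 was higher, PC was lower and the other 2 did not pass. The PC call, the lone lower one, was lost without CDK12 replicate 2 (edgeR adjusted p = 0.0622).

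Among carriers of glucose and lactate and their chaperone, 1 of 12 tested was higher and 5 were lower, against 16.2% and 18.9% of all genes tested. Their median log2 fold change was 0.06, with 6 values positive and 6 negative. Apart from SLC2A10, the genes with positive values averaged 6.17 CPM or less in either group and did not pass. The lower count was 3 when CDK12 replicate 2, control replicate 1 or control replicate 3 was left out. SLC2A10, a facilitative glucose transporter gene, rose to 231 ± 7.24 CPM in CDK12 libraries, against 195 ± 6.03 CPM in control libraries (log2 fold change 0.25; edgeR adjusted p = 4.26e-05). SLC2A1, which encodes the glucose transporter GLUT1, was at 190 ± 3.82 CPM in CDK12 libraries and 205 ± 3.92 CPM in control libraries (log2 fold change -0.11; edgeR adjusted p = 0.0294), a call lost with upper-quartile factors (0.144) and total counts (0.171). Leaving out control replicate 1 (adjusted p = 0.103), control replicate 3 (0.12) or CDK12 replicate 2 (0.119) also ended it. SLC2A8 and SLC2A12, glucose transporter genes of lower abundance, fell by 0.40 and 0.27 on the log2 scale. The monocarboxylate carrier gene SLC16A7, at under 1 CPM on average in either group, fell by 1.68 on that scale. The lactate carrier genes SLC16A1 and SLC16A3 were low, at 6.17 and 1.56 CPM in CDK12 libraries and 5.35 and 1.35 CPM in control libraries, and neither passed.

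Branches that leave glycolysis held genes that rose and genes that fell, as did all genes tested, of which 16.2% were higher and 18.9% lower. In the pentose phosphate pathway 1 of 8 tested genes was higher and 3 were lower, but 1 was lower without control replicate 3 or CDK12 replicate 2. H6PD, a dehydrogenase of the endoplasmic reticulum, rose to 36.4 ± 2.52 CPM in CDK12 libraries, against 27.9 ± 0.75 CPM in control libraries (SD, n = 3 each; log2 fold change 0.39, edgeR adjusted p = 2.14e-05). Of 14 genes of pyruvate entry into mitochondria, 3 were higher and 1 was lower, or 28.6% called, against 35.1% of all genes tested. Without control replicate 1 or CDK12 replicate 2 the higher count was 1, and PDK4 and PDP1 were also lost in DESeq2 (adjusted p = 0.114 and 0.0915). The lower call, PDHB, was lost without control replicate 2 (edgeR adjusted p = 0.0536), control replicate 3 (0.0683) or CDK12 replicate 3 (0.139), and the lower count was 2 without control replicate 1 or CDK12 replicate 1. PDK3, a kinase that inhibits pyruvate dehydrogenase, rose with a log2 fold change of 0.23 (edgeR adjusted p = 0.000979). Of 17 tested genes of the glycerol, serine, hexosamine and glycogen branches, 5 were higher and 3 lower, and 3 were higher without CDK12 replicate 3. PGM1, a phosphoglucomutase between glycogen and glucose 6-phosphate, rose to 15.4 ± 0.76 CPM in CDK12 libraries, against 10.1 ± 0.68 CPM in control libraries (SD, n = 3 each; log2 fold change 0.62). GYS1, glycogen synthase, fell to 56.2 ± 0.21 CPM in CDK12 libraries, against 71.0 ± 2.58 CPM in control libraries (log2 fold change -0.34). PGM3, of the hexosamine branch, fell by 0.37 on the log2 scale and PGM2 by 0.28, while GPD1L rose with a log2 fold change of 0.15.

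Among regulators of glycolytic genes, MYC fell and HIF1A did not pass. A list of hypoxia-inducible genes outside glycolysis held more higher than lower calls. HIF1A was at 135 ± 5.17 CPM in CDK12 libraries and 128 ± 2.05 CPM in control libraries and did not pass (edgeR adjusted p = 0.126). MYC, also an activator of glycolytic genes, fell to 89.6 ± 2.10 CPM in CDK12 libraries, against 115 ± 4.71 CPM in control libraries (SD, n = 3 each; edgeR adjusted p = 5.68e-07). EGLN1, an oxygen-sensing hydroxylase that marks HIF-1 alpha for decay, fell to 71.7 ± 1.81 CPM in CDK12 libraries, against 89.1 ± 2.16 CPM in control libraries (edgeR adjusted p = 4.96e-06). Of 12 regulators, 2 were higher and 4 lower, the other lower ones being EGLN3 (log2 fold change -0.23) and MLXIP (-0.20), and MLXIPL, whose product ChREBP answers to glucose, rose with one of 0.56. The other higher call, ARNT, the partner subunit of HIF-1, was lost without control replicate 2 (edgeR adjusted p = 0.073) or control replicate 3 (0.0558). Over all genes tested, 16.2% were higher and 18.9% lower. Of 19 hypoxia-inducible genes tested, 9 were higher and 2 lower (1 without control replicate 3 or CDK12 replicate 1), with a median log2 fold change of 0.14, against 1 higher and 6 lower among the enzymes. This difference between lists was not tested, and EGLN1 and EGLN3, both lower, were counted as regulators only. ADM, KDM3A, P4HA1 and PPFIA4 rose with log2 fold changes of 0.29, 0.20, 0.22 and 0.87, and ERO1A fell with one of -0.19. The other lower call, P4HA2, was lost without control replicate 3 (edgeR adjusted p = 0.0527) or CDK12 replicate 1 (0.0677). VEGFA (-0.06) and NDRG1 (-0.09) did not pass the test, and CA9 did not pass the filter.

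GAPDH is widely used as an internal reference for qPCR and blots, and it was set beside 19 other genes used in that way. Of those, 2 were higher and 8 lower, 9 not passing, against 16.2% higher and 18.9% lower over all genes tested. With upper-quartile factors or total counts, 3 of the 19 were higher and 6 lower. The median log2 fold change over the 19 was -0.02 with TMM factors. ACTB, the beta-actin gene, fell to 2355 ± 82.0 CPM in CDK12 libraries, against 3420 ± 128 CPM in control libraries (SD, n = 3 each; log2 fold change -0.54, edgeR adjusted p = 6.38e-11). The tubulin genes TUBA1B (-0.48) and TUBB (-0.43) fell by more than GAPDH on the same scale, whereas B2M (0.28) and RPL13A (0.21) rose. EEF1A1 (0.01), RPLP0 (-0.02) and HPRT1 (0.03) did not pass. Taken as a ratio to ACTB in the same library, all 10 enzymes were higher in all CDK12 libraries than in all control libraries, while as a ratio to RPLP0 9 of 10 were lower on average. As a ratio to GAPDH, each of the 9 other enzymes was higher on average, by 0.08 (HK2) to 0.55 (PFKM) on the log2 scale, and without overlap for 8 of them. These ratios were chosen after the values were seen. Their directions follow from the log2 fold changes already given, since ACTB fell by more than all 10 enzymes and GAPDH by more than the other 9. They are therefore no separate result, and shares over all genes for the same ratios are not given here.

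**Figure D5:**
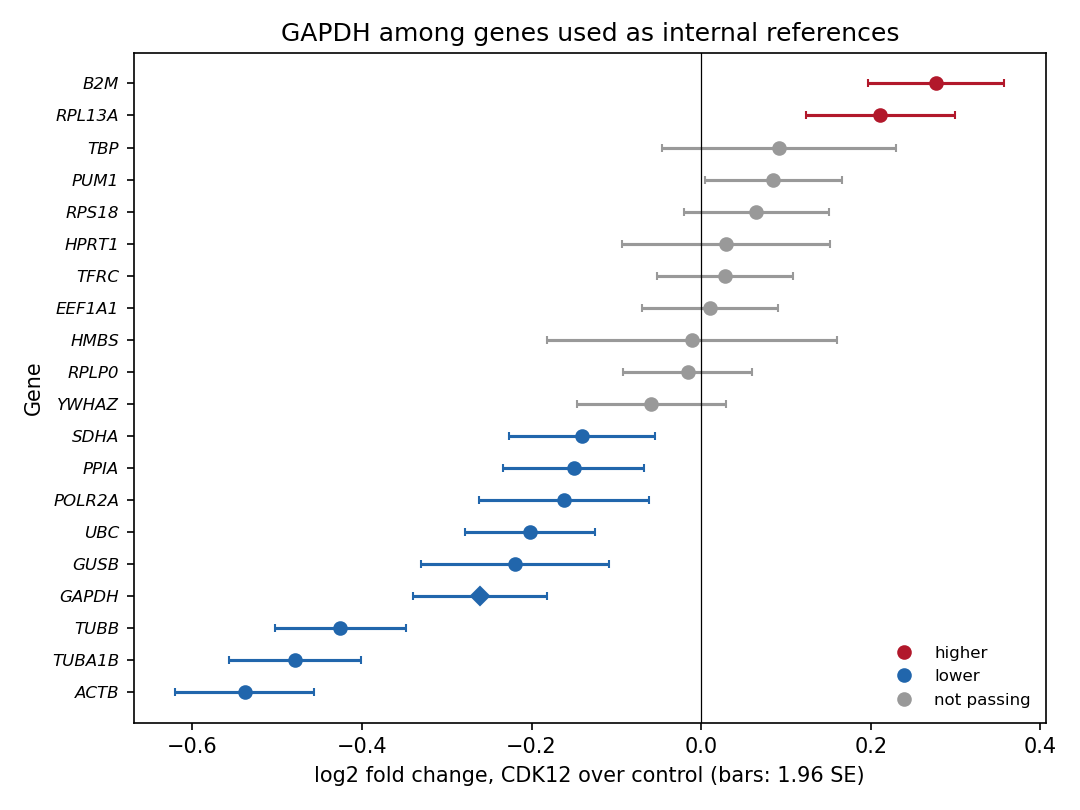
Log2 fold change (CDK12 over control) of GAPDH (diamond) and 19 other genes used as internal references (circles), with bars of 1.96 SE, coloured by the edgeR call at an adjusted p of 0.05. GAPDH (-0.26) lies between GUSB (-0.22) and the tubulin genes, with ACTB (-0.54) as the lowest.

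The genes most like GAPDH and PFKM across the 6 libraries were sought among 4804 others with a mean of at least 50 CPM, by Pearson's r of log2 CPM. CLN3, NAGK, CAPNS1, ACTB and NUDC came closest to GAPDH, with r from 0.997 for NUDC to 1.00 for CLN3, and all 5 were lower in CDK12 libraries. DDB2, CYP1B1, CA12, SORD and ACSF2 came closest to PFKM, with r from 0.988 for ACSF2 to 0.996 for DDB2, and all 5 were higher (ACSF2 not without control replicate 1). The points share the 2 groups and their depth, so that r reflects mostly the difference between groups, and it is given as a description.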

How the data were processed

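RNA sequencing libraries of 3 CDK12 and 3 control cultures were compared from the raw counts per gene symbol that the authors deposited. The submitters' processing notes name STAR 2.6.0c, CASAVA 1.8, Subread 1.6.2 with its featureCounts, and genome build hg19. No source at hand states the annotation, the strand setting or the handling of reads with several matches. Genes were filtered with edgeR 4.0.16 (filterByExpr, minimum count 10, minimum total 15), scaled by TMM and tested with the quasi-likelihood F test, two-sided, with group as the only term, and p-values were adjusted by Benjamini-Hochberg over all 14665 genes. SE is the size of the log2 fold change over the square root of F. Levels are mean ± SD of CPM over 3 libraries. Each enzyme had at least 1607 counts in every library. All pairs of replicates differed by more than sampling noise (chi-square per degree of freedom from 2.74 to 4.54).

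The enzymes and the other gene lists were chosen with earlier results of these data known. The text names the 10 enzymes, CDK12, PGAM1, the second gene of each isozyme pair and the 5 genes most like GAPDH and PFKM. From each other list it names some of the up to 4 called genes with the smallest p in each direction, and all 5 genes of phosphofructokinase control. HIF1A, VEGFA, NDRG1, CA9, SLC16A1, SLC16A3, EEF1A1, RPLP0, HPRT1, GUSB, the overlapping genes and the marker genes were named outside this rule. Alternatives were other scalings, other filters, DESeq2 1.42.0, limma-voom (limma 3.58.1), the replicate number as a block and each library left out. Promoter sequences are RefSeq's (GRCh38.p14), and exons are GENCODE 29. Some genes of the lists are not reported here by name.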

Additional observations from a re-analysis of the deposited data

How the results depend on the processing

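PFKM stayed higher, and HK2, GAPDH, PGK1, ENO1 and PKM lower, past the threshold in all 14 alternatives run for them. TPI1 passed in none of the 14 (adjusted p from 0.35 to 0.982), GPI in 9, LDHA in 3 and ALDOA in 1. Between 5 and 8 enzymes were lower, 5 with upper-quartile factors or total counts and 8 with limma-voom, and 5 to 7 with a library left out; 1 was higher throughout. Over all genes, 2371 were higher and 2772 lower with TMM factors, 3164 and 2144 with upper-quartile factors, and 3324 and 2064 with total counts, so that higher genes made up 46.1%, 59.6% and 61.7% of the calls. These scalings moved the median log2 fold change of all genes by 0.037 and 0.042. The summed level of the 10 enzymes, as a ratio of CDK12 to control, was 0.877 with TMM factors, 0.90 with upper-quartile factors, 0.904 with total counts and 0.869 to 0.885 with a library left out. With upper-quartile factors and with total counts alike, lower calls came to 3 carriers, 1 pentose phosphate gene, 1 hypoxia-inducible gene and 0 pyruvate entry genes (by edgeR, 1 at an unadjusted p under 0.05), and 2 genes of phosphofructokinase control were higher. With total counts 0 of these control genes were lower (edgeR, 1 at an unadjusted p under 0.05). ALDOC, at -0.02 with TMM factors and not called in any alternative, turned to 0.021 and 0.026 with those scalings and ran from -0.031 to 0.0030 with a library left out; PFKFB2 turned to 0.0024 and 0.0078. The cause was not tested. Counts of the other lists with 1 library left out, an alternative chosen after seeing the data, ran for higher and lower calls from 0 to 4 and 2 to 4 for other isozymes, 1 to 1 and 3 to 5 for carriers, 1 to 1 and 0 to 1 for phosphofructokinase control and for gluconeogenesis, 1 to 1 and 1 to 3 for the pentose phosphate pathway, 1 to 3 and 0 to 2 for pyruvate entry, 3 to 6 and 3 to 3 for side branches, 1 to 2 and 4 to 5 for regulators, 7 to 9 and 1 to 3 for hypoxia-inducible genes, and 2 to 3 and 6 to 8 for internal references.

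Replicate numbers are shared between groups. Deviations from the group mean correlated at -0.24, 0.29 and 0.17 between libraries numbered 1, 2 and 3. Between libraries of different numbers the correlations ran from -0.38 to 0.19. With 3 libraries per group the deviations depend on each other, so these values cannot tell whether the numbers mark a shared batch. With the replicate block, 5106 genes passed against 5143 without it, and 6 enzymes were lower and 1 higher. Counting error at 1 library is at most 2.49% for the enzymes, and genes such as LDHB or SLC16A3, with few counts, allow only large differences to be seen.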
